A study of Mus musculus with 8 samples.

Results

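Aquaporins are the membrane channels through which water, and for some of them glycerol, crosses cell membranes, and 9 members expressed or reported in kidney (Aqp1, Aqp2, Aqp3, Aqp4, Aqp5, Aqp6, Aqp7, Aqp8, and Aqp11) were followed in whole kidneys of mice with and without induced deletion of c-Maf. The members were chosen by gene name. All 9 were among the 55367 genes of the count table, and 7 of them were among the 20149 genes with enough counts to be tested. The comparison addressed whether loss of the transcription factor c-Maf in the adult altered the RNA of the kidney's water channels. The deposited data were RNA-Seq read counts from 4 mice of each genotype, all C57BL/6J and 8 weeks old by the labels. The mice labelled Maf conditional KO, named c-Maf ΔTAM by the study and knockout mice in the following, carried floxed c-Maf and CAG-Cre-ER TM, a TAM-inducible Cre driven by a promoter active in most cells, so deletion was not restricted to the kidney or to a tubule segment. The mice labelled Maf flox/flox, named c-Maf fl/fl by the study and control mice in the following, carried floxed c-Maf without Cre, and by the study's methods they received TAM as well; mice were analyzed at TAM(10d).

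In the nephron, most filtered water is recovered in the proximal tubule and the thin descending limb, where Aqp1 is the constitutive water channel. The final concentration of urine is set in the collecting duct. There vasopressin, acting through cAMP, moves Aqp2 to the apical membrane of principal cells, and Aqp3 and Aqp4 provide the basolateral exit. Other members lie mainly inside cells, such as Aqp6 in vesicles of acid-secreting intercalated cells and Aqp11 in the endoplasmic reticulum of the proximal tubule. Mice born without Aqp11 develop vacuolated proximal tubules and polycystic kidneys.

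Of the 9 aquaporins, Aqp11 alone passed the test, and it was lower in knockout mice. The most abundant channels, Aqp1 and Aqp2, did not pass the test in either direction, and neither did Aqp3, Aqp4, Aqp6, or Aqp7. Aqp5 and Aqp8 had too few counts to enter it. The sequences just upstream of Aqp11, the member that fell, and of Aqp2, the vasopressin-regulated member, are shown because they are the stretches in which a binding motif of Maf or of the cAMP pathway would be looked for first. They are RefSeq sequences of GRCm38.p6, written 5′ to 3′ in the direction of the gene and ending at the base before the first annotated start, and capitals mark a cAMP response element core. The Aqp11 stretch lies at chr7:97738290-97738497 on the minus strand and the Aqp2 stretch at chr15:99578806-99579054 on the plus strand.
Aqp11: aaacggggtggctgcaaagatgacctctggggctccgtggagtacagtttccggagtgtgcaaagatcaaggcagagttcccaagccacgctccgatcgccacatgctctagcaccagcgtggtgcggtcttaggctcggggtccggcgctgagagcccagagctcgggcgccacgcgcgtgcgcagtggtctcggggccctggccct
Aqp2: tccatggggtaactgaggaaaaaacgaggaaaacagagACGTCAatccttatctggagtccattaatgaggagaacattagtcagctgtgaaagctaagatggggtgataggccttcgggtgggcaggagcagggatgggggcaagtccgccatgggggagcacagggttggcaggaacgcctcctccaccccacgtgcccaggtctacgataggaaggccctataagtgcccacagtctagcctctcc

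A promoter window, from 250 bases before to 50 bases after a start given by RefSeq, was found for 8 of the 9 members, with 9 windows in all; Aqp4 had none. RefSeq starts can differ from the starts in the annotation used for the counts, and the stretches shown are the parts of the windows that lie before every annotated start. The motifs were searched on both strands. TGCTGAC, the short form of the Maf recognition element, was present in 4.67% of 32851 windows of all genes and in none of the 9. The AP-1 letters TGACTCA, which lie inside the longer TRE-type Maf element, were present in 5.20% of all windows and in none of the members' windows. ACGTCA, the core of the cAMP response element, was present in 7.51% of all windows and in 1 of the 9, that of Aqp2, where it begins at base 39 of the stretch shown. These matches describe letters only. Aqp2, Aqp5, and Aqp6 are neighbours on chromosome 15, with gaps of 6234 and 6570 bases, and Aqp7 and Aqp3 are neighbours on chromosome 4.

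Library totals ranged from 16649129 to 22990257 counts in knockout mice and from 18696580 to 20890209 in control mice. Levels are given as CPM, counts scaled to a common library size by the TMM method. Changes are log2 fold changes of knockout relative to control mice with their standard errors (SE), and adjusted P values are Benjamini-Hochberg values over all tested genes from edgeR's quasi-likelihood test. Maf itself had 178, 671, 533, and 187 counts in knockout mice 1 to 4 and 7746, 7580, 6018, and 5988 in control mice 1 to 4, a log2 fold change of -4.05 (SE 0.51, adjusted P = 0.0115). The labels name whole kidney, although a protocol line names liver. Kidney markers were high, with a summed level of 6 thick limb markers of 3933 to 6888 CPM, against 22.8 to 51.9 CPM for 4 hepatocyte markers, of which Serpina3k was at 0 in every mouse. Xist, the RNA of the inactive X chromosome, was nearly absent in knockout mouse 1 and control mice 3 and 4, and the sexes were not given in the sources used here. Mitochondrial and ribosomal RNA genes took 18.1% to 33.2% of the counts, with the highest share in knockout mouse 1.

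**Figure D1:**
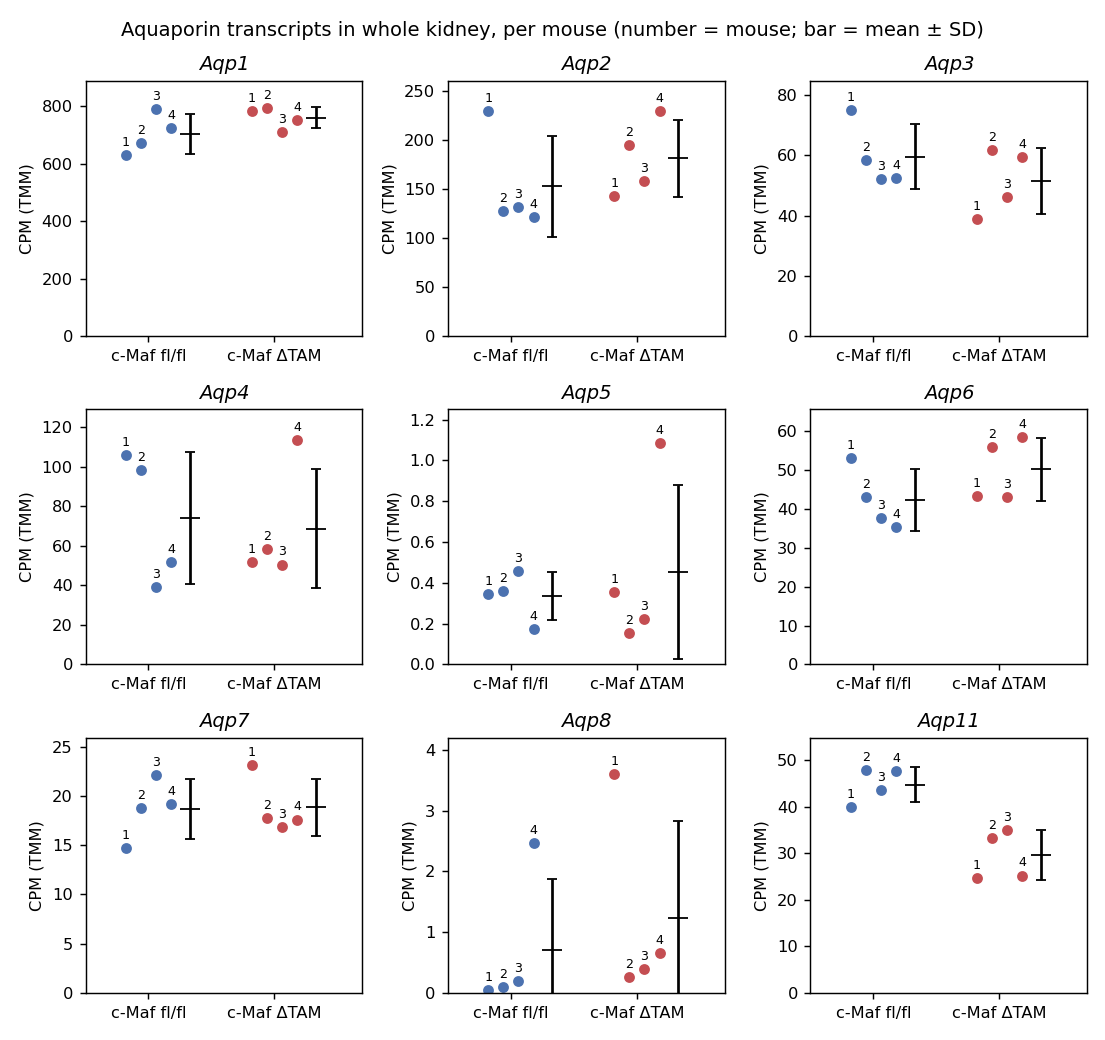
Levels of the 9 aquaporins in whole kidney of control (c-Maf fl/fl) and knockout (c-Maf ΔTAM) mice, with CPM on the y axis of each panel (linear, from 0), 1 point per mouse numbered by mouse, and the mean ± SD (n = 4 per genotype) beside the points. Aqp11 is the member whose genotypes do not overlap (24.7 to 35.1 CPM in knockout and 39.9 to 48.0 CPM in control mice).

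The decrease in Aqp11 was present in every knockout mouse. Its level was 24.7, 33.3, 35.1, and 25.2 CPM in knockout mice 1 to 4 and 39.9, 48.0, 43.6, and 47.6 CPM in control mice 1 to 4. All 4 knockout mice lay below all 4 control mice, with mice 1 and 4 lowest. On average it was 29.6 ± 5.39 CPM in knockout and 44.8 ± 3.81 CPM in control mice (SD, n = 4 each). This is a log2 fold change of -0.60 (SE 0.13, 95% CI -0.87 to -0.32, adjusted P = 0.0317, edgeR), so the level fell by 33.9%. The gene lies on chromosome 7 of GRCm38 (chr7:97724006-97738289, minus strand), and its annotated exons share 0 bases with those of another gene. Of all tested genes, 2.16% were called in either direction and 1.58% were called lower, and among the 7 tested aquaporins the call rests on 1 gene. Genotypes did not overlap in 9.79% of all tested genes, and among the tested aquaporins in Aqp11 only. The summed level of 10 proximal tubule markers was 15847 to 18115 CPM in knockout and 18504 to 24064 CPM in control mice. The genotypes did not overlap, with 1 of the 10 called. That marker, Slc34a1, was at 1481 to 1972 CPM in knockout and 3501 to 4532 CPM in control mice. Without it the sums of the genotypes overlapped. The part of these markers in the Aqp11 difference was tested only through the ratios given with the other members.

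The Aqp11 call depended on single mice. It was past the threshold in 2 of the 8 fits that left out 1 mouse, those without knockout mouse 3 (adjusted P = 0.0331, edgeR) and without control mouse 1 (adjusted P = 0.0360), and was lost in the other 6, with an adjusted P of up to 0.0901, while the log2 fold change stayed between -0.69 and -0.52. Within the 5 high-Xist mice it was -0.50 (adjusted P = 0.0756), and with Xist as a covariate in all 8 mice it was -0.63 (adjusted P = 0.00413). With mouse number as a block (the replicate block) the log2 fold change was -0.61 and the call was lost (adjusted P = 0.101, edgeR).

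The other proximal members did not pass the test. Aqp1, the constitutive channel of the proximal tubule and thin descending limb, which is also made by endothelium and red blood cells, was at 784, 795, 710.4, and 753 CPM in knockout mice and at 631, 670.4, 789, and 723 CPM in control mice. The genotypes overlapped, with the lowest values in control mice 1 and 2. The log2 fold change was 0.11 (SE 0.10, 95% CI -0.10 to 0.32, adjusted P = 0.662, edgeR), an interval that holds ratios from 0.936 to 1.25. With each mouse left out the change ranged from 0.063 to 0.17. It was 0.22 with quantile normalization (adjusted P = 0.276, limma) and 0.21 in the 5 mice with high Xist (adjusted P = 0.267, edgeR). Aqp7, a channel for water and glycerol in the brush border of the proximal S3 segment and in adipocytes, was at 23.1, 17.8, 16.9, and 17.6 CPM in knockout mice and at 14.7, 18.8, 22.1, and 19.2 CPM in control mice. Its log2 fold change was 0.012 (SE 0.14, 95% CI -0.30 to 0.32, adjusted P = 0.982). The 3 mice with low Xist had 19.2 to 23.1 CPM of Aqp7 and the other 5 had 14.7 to 18.8 CPM. This split was described after the values were seen and was not tested. The summed level of 6 adipocyte markers was 197 CPM in control mouse 3, against 25.0 to 46.9 CPM in the other 7 mice, and its part in the Aqp7 value of that mouse was not tested. Of the exonic 36-base sequences of Aqp7, 5.64% also occur in other genes.

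Aqp8, a channel better known from liver, colon, and testis, was nearly absent. It had 71, 5, 7, and 12 counts in knockout mice and 1, 2, 4, and 42 counts in control mice, so that 1 mouse of each genotype held most of the reads (exact permutation test, two-sided, P = 0.457). These were knockout mouse 1 and control mouse 4, both with low Xist. Control mouse 3, the other mouse with low Xist, had 4 counts.

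The collecting duct channels varied more between mice than between genotypes. Aqp2 was at 142, 194, 158, and 229.7 CPM in knockout mice and at 229.6, 127, 131, and 121 CPM in control mice. The knockout mice lay above 3 of the 4 control mice, and control mouse 1 was level with the highest of them. The log2 fold change was 0.25 (SE 0.23, 95% CI -0.29 to 0.78, adjusted P = 0.709, edgeR), which holds ratios from 0.820 to 1.72. With each mouse left out it ranged from 0.11 without knockout mouse 4 (adjusted P = 0.885) to 0.51 without control mouse 1 (adjusted P = 0.154). Aqp3, a basolateral channel for water and glycerol, was at 38.9, 61.8, 46.0, and 59.3 CPM in knockout mice and at 75.2, 58.4, 52.1, and 52.5 CPM in control mice. The lowest value was that of knockout mouse 1 and the highest that of control mouse 1, with a log2 fold change of -0.21 (SE 0.16, 95% CI -0.57 to 0.16, adjusted P = 0.631). Without control mouse 1 the log2 fold change was -0.078, without knockout mouse 1 it was -0.093, and with each mouse left out it went down to -0.31. Aqp4, the other basolateral channel, was at 52.0, 58.5, 50.6, and 113.5 CPM in knockout mice and at 106, 98.5, 39.1, and 52.1 CPM in control mice. It had 3 high and 5 low mice that did not follow genotype, and its log2 fold change of -0.11 had the widest interval of the tested members (SE 0.42, 95% CI -1.11 to 0.90, adjusted P = 0.943).

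Markers of the thin limb, a medullary segment, varied between mice as well. Their summed level over 6 markers was 82.2, 98.5, 85.9, and 142 CPM in knockout mice and 119, 70.8, 81.2, and 64.5 CPM in control mice. It was highest in knockout mouse 4 and control mouse 1, which were also the highest for Aqp2 and Aqp4. Control mouse 2, the other mouse with a high level of Aqp4, was at 70.8 CPM, the second lowest of the 8. Of those 6 markers, Fst was called higher in knockout mice. The share of medulla in each kidney was not measured, and the part of these markers in the Aqp2 and Aqp4 values was not tested. In whole kidney, fewer cells of a type and less RNA per cell cannot be told apart.

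Of the members linked to intercalated cells, Aqp6 was at 43.2, 56.0, 43.1, and 58.4 CPM in knockout mice and at 53.1, 43.0, 37.7, and 35.3 CPM in control mice. The genotypes overlapped through control mouse 1, and the log2 fold change was 0.25 (SE 0.15, 95% CI -0.07 to 0.57, adjusted P = 0.493, edgeR). With each mouse left out it ranged from 0.17 without knockout mouse 4 (adjusted P = 0.685) to 0.38 without control mouse 1 (adjusted P = 0.238). Aqp5, best known as the water channel of salivary and lacrimal glands, had 7, 3, 4, and 20 counts in knockout mice and 7, 8, 9, and 3 counts in control mice (exact permutation test, two-sided, P = 0.857). At these depths 3 counts correspond to 0.135 to 0.176 CPM. Within knockout mice the counts ran from 3 to 20 for Aqp5 and from 5 to 71 for Aqp8. With this spread, even differences larger than several counts in these 2 genes may not have been detectable. The 3 listed aquaporins outside the family described here were lower still: Aqp9 had 2 counts in all knockout mice and 7 in all control mice, Mip had 5 and 4, and Aqp12 had 0 in every mouse.

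**Figure D2:**
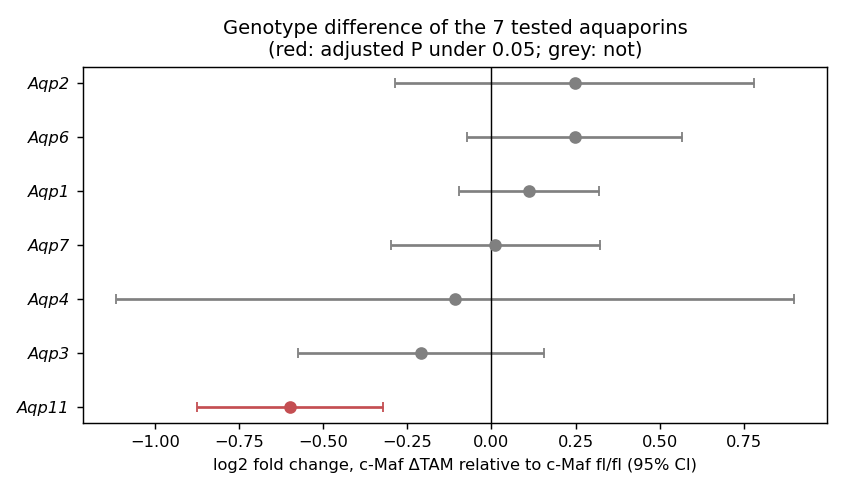
Log2 fold change of the 7 tested aquaporins on the x axis (knockout relative to control mice, n = 4 each), with bars giving the 95% CI and red marking an adjusted P under 0.05. The interval of Aqp11 (-0.87 to -0.32) lies below 0 and the other 6 intervals cross it.

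**Figure D3:**
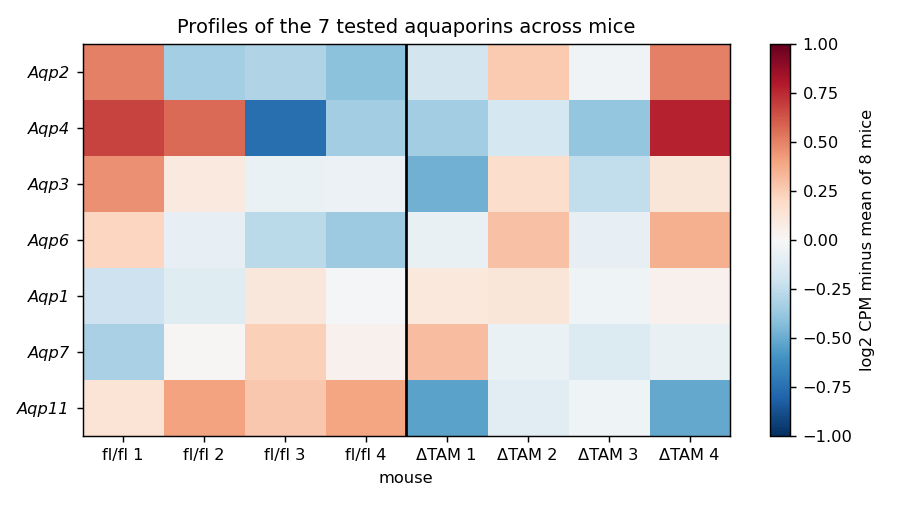
Log2 CPM of the 7 tested aquaporins (rows) in each mouse (columns, control left of the line and knockout right of it), after subtraction of each gene's mean over the 8 mice. Aqp2 and Aqp4 are high in control mouse 1 and knockout mouse 4, and Aqp11 is low in knockout mice 1 and 4.

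Per kilobase of annotated exon, the order of the levels was the same in both genotypes: Aqp1, Aqp2, Aqp3, Aqp6, Aqp4, Aqp7, Aqp11, Aqp8, and Aqp5. In control mice the level per kb was 268 ± 26.1 CPM for Aqp1, 107 ± 36.4 for Aqp2, 32.6 ± 5.92 for Aqp3, 17.4 ± 3.26 for Aqp6, and 11.9 ± 5.35 for Aqp4 (SD, n = 4). Aqp7 followed with 6.61 ± 1.07, Aqp11 with 4.75 ± 0.405, Aqp8 with 0.444 ± 0.744, and Aqp5 with 0.129 ± 0.0449 CPM per kb. The ranges over the 4 control mice overlapped between Aqp6 and Aqp4, between Aqp4 and Aqp7, and between Aqp8 and Aqp5, so these neighbours were not separated. In knockout mice those of Aqp3 and Aqp6 overlapped as well. The place of Aqp11 depended on its length: the annotated exons add up to 9418 bases, because they include a retained-intron transcript of 5798 bases, while the longest coding transcript has 3737. With coding transcripts, Aqp11 stood above Aqp7, at 11.98 ± 1.02 against 7.39 ± 1.20 CPM per kb in control mice and at 7.92 ± 1.44 against 7.45 ± 1.14 in knockout mice, where their ranges overlapped.

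**Figure D4:**
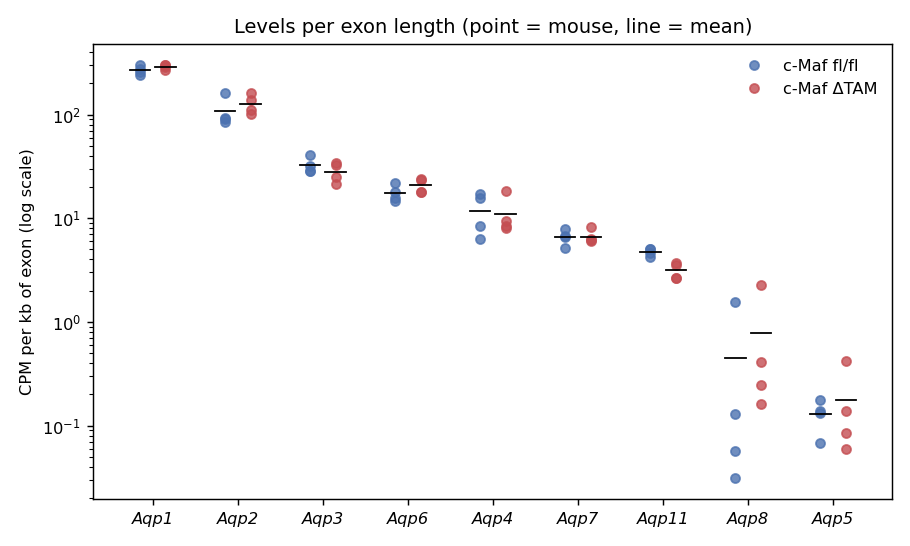
CPM per kb of annotated exon (y axis, log scale) of the 9 aquaporins, ordered by level, with 1 point per mouse and lines at the mean of each genotype (n = 4). The levels span from 268 CPM per kb for Aqp1 to 0.129 CPM per kb for Aqp5 in control mice.

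To set each channel against the cells it is known from, its CPM was divided by the summed CPM of a marker list, and the log2 ratios were compared by two-sided exact permutation tests over all 70 assignments of the mice, whose smallest P is 0.0286. None of the 9 ratios passed after adjustment, which over 9 tests needs several ratios at the smallest P. The ratio of Aqp1 to 10 proximal tubule markers was higher by 0.45 on the log2 scale in knockout mice, with no overlap (exact P = 0.0286, adjusted P = 0.0857 over 9 tests), and that of Aqp7 to 6 S3 markers by 0.26 (exact P = 0.0286, adjusted P = 0.0857). When each S3 marker counted equally, the Aqp7 difference was 0.85 (exact P = 0.171), and in the 5 mice with high Xist the ratio to the summed markers differed by 0.13 (exact P = 0.2, where 0.1 is the smallest possible). Among the S3 markers, Slc7a13 was at 204 to 324 CPM in the 3 low-Xist mice and 0.411 to 1.08 CPM in the other 5. Cyp7b1 (97.8 to 170 against 1.66 to 2.55 CPM) and Acy3 (800 to 999 against 201 to 324 CPM) split the same way. Slc22a13 split the other way (30.3 to 42.4 against 61.4 to 83.2 CPM), and the ranges of Slc22a7 and Napsa overlapped. The part of these markers in the Aqp7 ratio was not tested apart from the alternatives given. The denominator of the proximal ratios was itself lower in knockout mice, as given for Aqp11. The marker called among the 10 was the phosphate transporter Slc34a1, with means of 1745 ± 202 CPM and 4098 ± 489.9 CPM (SD, n = 4 each; adjusted P = 0.000217, edgeR). With Slc34a1 left out, the Aqp1 ratio differed by 0.30. Another of the 10, Acsm2, was at 2787 to 3591 CPM in the 3 low-Xist mice and 893 to 1189 CPM in the other 5. Slc22a6 and Slc27a2 split the same way, and the ranges of the other proximal markers overlapped. In the 5 mice with high Xist the Aqp1 ratio differed by 0.415 (exact P = 0.1, the smallest possible there).

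The ratio of Aqp11 to the proximal markers was lower by a log2 difference of -0.27 in knockout mice, with overlap (exact P = 0.0857, adjusted P = 0.193). With Slc34a1 left out the difference was -0.42, without overlap (exact P = 0.0286, not adjusted, an alternative chosen after the values were seen). When each marker counted equally it was -0.25 (exact P = 0.200), in the 5 mice with high Xist it was -0.29 (exact P = 0.200), and with each mouse left out it ranged from -0.35 to -0.19. Aqp3 was lower against 6 principal cell markers in all 4 knockout mice (log2 difference -0.54, exact P = 0.0286, adjusted P = 0.0857). On average the largest term of that sum was Npnt, which was at 307 ± 42.6 CPM in knockout and 198 ± 42.1 CPM in control mice (SD, n = 4 each; adjusted P = 0.0661, edgeR), and when each marker counted equally the difference was -0.34 (exact P = 0.114). The ratio of Aqp2 to the same markers differed by -0.051 (exact P = 0.771), that of Aqp4 by -0.40 (exact P = 0.343), and that of Aqp6 to 8 intercalated cell markers by 0.25 (exact P = 0.143). Those of Aqp5 and Aqp8 differed by 0.11 and 0.89, on few counts.

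**Figure D5:**
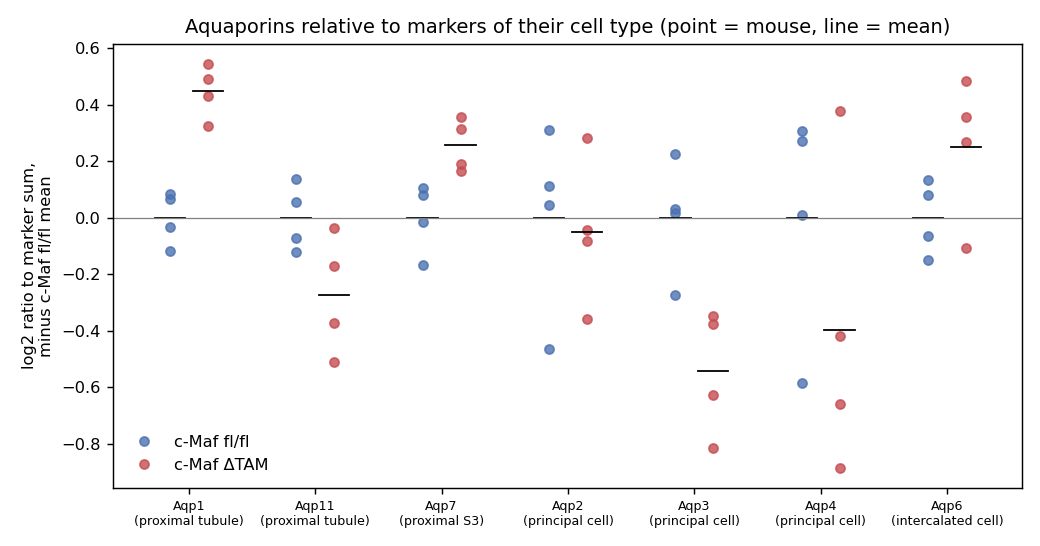
Log2 ratio of 7 aquaporins to the summed CPM of the cell type markers named under each gene (y axis, centred on the control mean), with 1 point per mouse and lines at genotype means (n = 4). Genotypes do not overlap for Aqp1, Aqp7, and Aqp3, and the adjusted exact P is 0.0857 for each.

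Ratios between members, which need no marker list, were tested for 6 pairs. Aqp1 relative to Aqp11 was higher in all 4 knockout mice by 0.72 on the log2 scale, with log2 ratios of 4.96, 4.56, 4.32, and 4.87 against 3.97, 3.79, 4.16, and 3.91 (exact P = 0.0286, adjusted P = 0.0857 over 6 tests). Aqp2 relative to Aqp3, which share the principal cell, was higher in all 4 knockout mice by 0.49, with log2 ratios of 1.85, 1.64, 1.77, and 1.94 against 1.60, 1.12, 1.32, and 1.20 (exact P = 0.0286, adjusted P = 0.0857). Neither passed after adjustment, which in this design needs several pairs at the smallest P. Aqp7 relative to Aqp11 differed by 0.62 (exact P = 0.0571), Aqp2 relative to Aqp4 by 0.35, Aqp1 relative to Aqp7 by 0.10, and Aqp3 relative to Aqp4 by -0.14.

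Genes around the channels were called at a rate near that over all tested genes. Among 71 listed genes of water balance, 67 were tested, 0 were called higher and 1 lower, beside 0.586% and 1.58% of all tested genes; 7 of the 67 had an unadjusted P under 0.05, beside 14% of all tested genes. Their median log2 fold change was -0.0079, against 0.0027 over all tested genes. The gene called was Ezr, the membrane-actin linker ezrin, which is among the proteins reported to take part in Aqp2 traffic and is abundant in the proximal brush border. Its level was 241, 297, 308, and 305 CPM in knockout mice and 438, 430.3, 341, and 423 CPM in control mice, without overlap (log2 fold change -0.50, SE 0.11, adjusted P = 0.0398, edgeR). It was kept in 1 of the 8 fits that left out a mouse, that without control mouse 3 (adjusted P = 0.0275), while the other 7 gave log2 fold changes of -0.54 to -0.43 and adjusted P values of 0.0550 to 0.111. The call was also lost with upper-quartile factors (-0.46, adjusted P = 0.0575), with quantile normalization (-0.41, adjusted P = 0.166, limma), by edgeR's exact test (-0.51, adjusted P = 0.0626), and with the replicate block (-0.50, adjusted P = 0.238). It was kept with Xist as a covariate (-0.56, adjusted P = 0.000177), in the 5 mice with high Xist (-0.52, adjusted P = 0.00104), with DESeq2 (adjusted P = 0.00219), and with genes of at least 1 count in any mouse (adjusted P = 0.00185). Ezr was the call among 22 genes of Aqp2 trafficking, of which 14 had a negative and 8 a positive fold change.

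No gene was called among 15 tested of vasopressin and cAMP signalling, 8 collecting duct transcription factors, 14 of medullary salt and urea transport, or 8 of glycerol handling. Over all tested genes 2.16% were called, so 0 calls in lists this short do not set them apart. The vasopressin receptor Avpr2 had 26 counts in all knockout mice and 14 in all control mice and was not tested. Of its exonic bases, 81.3% are shared with Arhgap4 on the opposite strand, and reads there were not counted. Nfat5, the transcription factor of the osmotic response, was at 234 ± 24.8 CPM in knockout and 192 ± 20.2 CPM in control mice (SD, n = 4 each; log2 fold change 0.28, adjusted P = 0.243, edgeR). The urea transporter Slc14a2 was at 48.5 ± 17.5 and 44.3 ± 11.4 CPM (log2 fold change 0.13, adjusted P = 0.880), and this gene, which is also among the thin limb markers, had its highest values in knockout mouse 4 and control mouse 1.

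The genes whose profile over the 8 mice was most like that of Aqp11 were ranked by the root mean square difference of their centred log2 CPM, over 17483 tested genes of at least 1 CPM on average. The nearest was Flrt1, a leucine-rich repeat membrane protein, at a distance of 0.0914, with 111 to 157 CPM in knockout and 194 to 247 CPM in control mice (log2 fold change -0.62, adjusted P = 0.0265, edgeR). Iqcd followed at 0.109 (log2 fold change -0.85) and Tppp, a tubulin-binding protein, at 0.115 (log2 fold change -0.60), both with an adjusted P of 0.0995. All 3 had lower values in every knockout mouse than in any control mouse, a property that likeness to Aqp11 favours.

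Other cell types were checked by the same kind of lists. The summed level of 6 macrophage markers was 98.5 to 107 CPM in knockout and 85.1 to 91.9 CPM in control mice, without overlap and with 0 of 6 called. Red blood cell markers ranged from 189 to 286 CPM against 206 to 349.5 CPM, and endothelial markers from 604 to 656 CPM against 622 to 745 CPM, with Kdr called lower. Both cell types make Aqp1, and their part in its level was not tested.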

How the data were processed

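RNA-Seq was analysed in whole kidneys of 4 c-Maf ΔTAM and 4 c-Maf fl/fl mice; groups and mouse numbers came from the labels. The authors deposited raw counts of reads per gene name, made with featureCounts 2.0.1 on exons of Ensembl release 102 (GRCm38). The submitters' processing notes list Subread 2.0.2 and edgeR 3.36.0. Libraries were rRNA-depleted, directional, and paired-end; reads of a pair were counted separately, without strand, and reads on exons of several genes were not counted, so counts are not independent molecules. The aligner of these counts is not given in the sources used here. The paper's own route (CLC Genomics Workbench, mm10, quantile normalization) was not repeated.

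Genes were filtered by filterByExpr (20149 of 55367 kept), scaled by TMM, and compared with edgeR 4.0.16's robust quasi-likelihood test in R 4.3.3, without covariates, at a Benjamini-Hochberg adjusted P of 0.05. The biological coefficient of variation was 0.203. Ratios had 0.5 CPM added. No library was a copy of another of the same genotype, and pairs across genotypes were not examined. The quasi-likelihood test was tried on simulated counts with known changes, and the other steps were not tested in this way. The members, gene lists, and rule for named genes (Maf, the aquaporins, the called genes of each list with Avpr2, Slc14a2, and Nfat5, and the 3 genes most like each called member) were chosen with earlier results of these data known. Alternatives were RLE, upper-quartile, and quantile normalization (limma 3.58.1), DESeq2 1.42.0, edgeR's exact test, other filters, an adjusted P of 0.01, a replicate block, Xist as a covariate, the 5 mice with high Xist, no mitochondrial or ribosomal RNA genes, and each mouse left out. Some listed items are not reported here. A ratio without Slc34a1 was added after the values were seen. Figures were drawn with matplotlib 3.10.9.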

Additional observations from a re-analysis of the deposited data

Results flagged for a closer look

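Of 20 groups of 4 mice examined, 5 held a mouse far from the other 3 by Dixon's criterion, where chance gives about 1. The level of Aqp2 in control mouse 1 was 229.6 CPM, against 121 to 131 CPM in the other control mice. That of Aqp4 in knockout mouse 4 was 113.5 CPM, against 50.6 to 58.5 CPM. That of Aqp7 in knockout mouse 1 was 23.1 CPM, against 16.9 to 17.8 CPM. Aqp8 stood out in control mouse 4 at 2.46 CPM, against 0.0491 to 0.203 CPM, and in knockout mouse 1 at 3.61 CPM, against 0.257 to 0.650 CPM.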

How the results depend on the processing

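The count of aquaporins called lower (1, Aqp11) was 0 at an adjusted P under 0.01, with the replicate block, and in the 5 mice with high Xist, and ranged from 0 to 1 when each mouse was left out; 0 were called higher throughout. Aqp11 was called with RLE and upper-quartile factors, quantile normalization, DESeq2, the exact test, both count filters, Xist as a covariate, and without mitochondrial and ribosomal RNA genes. The water balance genes called lower (1, Ezr) were 0 at an adjusted P under 0.01, with upper-quartile factors, with quantile normalization, by edgeR's exact test, and with the replicate block. They were 2 with DESeq2 and with genes of at least 1 count in any mouse (Ezr and Hspa8), 3 with Xist as a covariate, and 0 to 1 with each mouse left out. Those called higher (0) were 1 with Xist as a covariate (Msn), 2 in the 5 mice with high Xist, and 0 to 1 with each mouse left out (Ptger3, without knockout mouse 1). The log2 fold change of Maf was past 0.05 in every fit that left out a mouse (-4.41 to -3.80), but not with the replicate block (-4.28, adjusted P = 0.0516) or in the 5 mice with high Xist (-3.87, adjusted P = 0.108), nor past 0.01 in all mice (-4.05). With each mouse left out, the sign turned for Aqp4 (-0.46 to 0.12), Aqp7 (-0.10 to 0.10), and the marker ratios of Aqp2 (-0.21 to 0.052) and Aqp5 (-0.16 to 0.29), and for Aqp3 relative to Aqp4 (-0.33 to 0.061). The Aqp2 marker ratio was also 0.039 in the 5 mice with high Xist and 0.15 with markers averaged as log2 CPM, and Aqp3 relative to Aqp4 was 0.29 in the 5 mice. The causes were not tested. Over all genes, 118 were called higher and 318 lower, against 18 and 111 with the replicate block, 36 and 144 at 0.01, 218 and 378 by the exact test, 191 and 409 with at least 1 count in any mouse, 320 and 567 with DESeq2, 548 and 868 with Xist as a covariate, 322 and 467 in the 5 mice, and 51 to 142 and 188 to 310 with each mouse left out. Mice with the same number shared only that number: the correlations of their deviations were -0.49, 0.23, -0.18, and -0.46, and with the replicate block Aqp11 had a log2 fold change of -0.61 (adjusted P = 0.101, edgeR). Depth limits Aqp5 and Aqp8, and 4 mice per genotype limit the intervals of the other members.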
